A study of Mus musculus with 4 samples.

Results

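Lysosomal genes were read in pachytene spermatocytes cultured with or without an inhibitor of ATR, the kinase whose DNA damage response signaling marks the silent sex chromosomes in male meiosis. The set held 9 genes of the 23420 gene symbols in the deposited table, chosen by name: *Lamp1*, *Lamp2*, *Lamp3*, *Scarb2* and *Cd63*, which encode proteins of the lysosomal membrane, *Gla* and *Ids*, which encode enzymes of the lysosomal lumen, and *Atp6ap1* and *Atp6ap2*, which encode accessory subunits of the proton pump that acidifies the lysosome. Of these, 5 lie on the X chromosome (*Lamp2*, *Gla*, *Ids*, *Atp6ap1* and *Atp6ap2*) and 4 on autosomes, so the comparison addressed how X-linked genes behave beside autosomal genes of the same organelle when ATR is inhibited. Each of the 9 symbols had its own row.

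The cells came from testes of adult B6 mice (WT, 23 weeks of age) and were sorted by DNA content into a fraction enriched for pachytene spermatocytes. They were cultured for 24 h with the solvent DMSO (Ctrl, 2 libraries) or with 10 µM AZ20, an ATR inhibitor (AZ20, 2 libraries), and 15000 cells entered each library. The cells of a mouse were divided between Ctrl and AZ20, so the libraries form 2 pairs. Libraries with the same replicate number were taken as a pair, which the labels do not state. The depth recovered from the table was 14515186 and 16440117 reads for Ctrl, against 20926654 and 19189194 for AZ20, and both AZ20 libraries were thus deeper than both Ctrl libraries. The label of the cells was checked first: 8 of 8 markers of pachytene spermatocytes were above 1 TPM, and their summed level in TPM, a count scaled to gene length and library total, was 10151 to 10491 in Ctrl and 10570 to 10852 in AZ20. Markers of macrophages, which are rich in lysosomes, summed to 0.0528 to 0.588 TPM in Ctrl and 1.46 to 1.74 TPM in AZ20. None of the 9 macrophage markers in the table passed 1 TPM in any library, and *C1qa*, *C1qc* and *Tyrobp* were listed at 0. Summed Sertoli cell markers were 1.39 to 1.78 TPM in Ctrl and 2.0 to 2.22 TPM in AZ20, with *Sox9*, *Wt1* and *Rhox5* listed at 0, Leydig cell markers 0.866 to 2.31 and 1.60 to 2.11 TPM, peritubular myoid cell markers 2.18 to 2.89 and 2.59 to 4.60 TPM, and spermatogonial markers 0.655 to 1.09 and 1.23 to 2.25 TPM. Markers of round spermatids were higher and uneven, at 149 to 365 TPM in Ctrl and 251 to 771 TPM in AZ20, and their part in the results was not tested.

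Lysosomes are acidic compartments in which proteins, lipids, sugars and nucleic acids are broken down. Their membrane is coated by heavily glycosylated proteins, above all LAMP1 and LAMP2, the lumen is kept acidic by the vacuolar proton pump, and the hydrolases reach the lumen through sorting receptors and coats of the trans-Golgi network. In meiotic sex chromosome inactivation (MSCI), the X and Y chromosomes of a pachytene spermatocyte are silenced as a whole. Silencing covers X-linked genes with general cellular roles, for which autosomal relatives can remain available.

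*Lamp2* (ENSMUSG00000016534, minus strand, chrX:38401357-38456454 in GRCm38) encodes a major lysosomal membrane protein that also serves in the fusion of autophagosomes with lysosomes and, as the LAMP2A isoform, in chaperone-mediated autophagy. In Ctrl its level was 0.0241 and 0.169 TPM, which corresponded to 1 and 8 reads. In AZ20 it was 7.03 and 8.36 TPM, or 420 and 451 reads. Both AZ20 libraries lay far above both Ctrl libraries, and the change on the log2(TPM + 1) scale was 2.97 in the first pair and 3.0 in the second. The fitted log2 change was 2.99 (SE 0.29, 95% interval 2.29 to 3.68, limma adjusted p = 0.00168 over all genes tested, n = 2 per group). Because 1 is added before the logarithm, that scale understates a rise from so low a level. The ratio of mean TPM was 79.8. A counting interval from the depth-scaled reads pooled in each group was 39.7 to 166 and covers counting error only. The ratio rested on few Ctrl reads, and the AZ20 mean was 319 times the first Ctrl library and 45.6 times the second. In a bulk library, a change in the number of cells that hold a transcript and a change in its amount per cell cannot be told apart. The annotation holds 3 coding transcripts of *Lamp2*, and the table gives 1 value per gene, so the isoforms were not told apart.

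*Lamp1* (chr8:13159161-13175338, plus strand) encodes the close autosomal relative of LAMP2. Its level was 122 and 119 TPM in Ctrl and 100 and 98.4 TPM in AZ20. The AZ20 libraries were slightly below the Ctrl libraries, without overlap, as was the case in either direction for 3593 of the 9925 autosomal genes tested. The log2 change was -0.28 (SE 0.16, 95% interval -0.66 to 0.11) and did not pass the test (limma adjusted p = 0.724), with -0.28 and -0.27 in the pairs. The annotated span of *Lamp1* overlaps that of *Grtp1* on the opposite strand, listed at 211 to 327 TPM, and the library kit does not mark strand. Within each library, *Lamp2* amounted to 0.0197% and 0.142% of the *Lamp1* level in Ctrl, and to 7.01% and 8.50% in AZ20. *Lamp1* therefore remained the more abundant of the pair in every library on the TPM scale, which accounts for gene length.

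None of the other autosomal membrane genes was called. *Cd63*, which encodes a tetraspanin of late endosomes and lysosomes, was at 24.4 and 30.2 TPM in Ctrl and 29.7 and 14.7 TPM in AZ20. The groups overlapped, since the first AZ20 library was within the Ctrl range and the second was below it. The log2 change of *Cd63* was -0.36 (SE 0.34, 95% interval -1.16 to 0.44, limma adjusted p = 0.835), with 0.27 in the first pair and -0.99 in the second, and the sign rested on the second AZ20 library, without which the change was 0.13. *Lamp3*, the gene of a LAMP protein of restricted expression, was at 0.504 and 0.519 TPM in Ctrl and 0.576 and 0.410 TPM in AZ20. It stayed under the minimum of 1 TPM for a test. The ratio of mean TPM was 0.965, with a counting interval of 0.617 to 1.54 from 37 Ctrl and 46 AZ20 reads. *Scarb2*, the gene of LIMP-2, a membrane protein that carries glucocerebrosidase to the lysosome, was listed at 0 in all 4 libraries. The level that 3 reads would give was 0.0443 to 0.0638 TPM across the libraries.

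**Figure D1:**
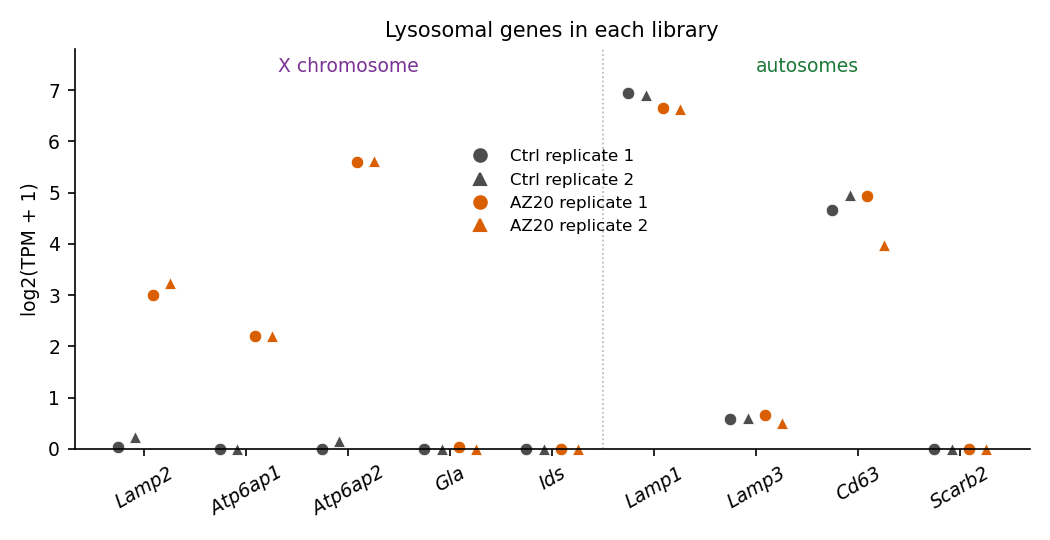
Level of each of the 9 lysosomal genes in each library, as log2(TPM + 1), with X-linked genes on the left and autosomal genes on the right. Points are single libraries, gray for Ctrl and orange for AZ20, with circles for replicate 1 and triangles for replicate 2. *Lamp2*, *Atp6ap1* and *Atp6ap2* are near 0 in Ctrl and separate from it in AZ20, while *Gla*, *Ids* and *Scarb2* sit at or near 0 in all 4 libraries and *Lamp1* stays between 98.4 and 122 TPM.

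The genes of the accessory subunits of the proton pump were the other X-linked members that could be tested. *Atp6ap2* (chrX:12587801-12617049, plus strand) encodes the (pro)renin receptor, a subunit that the assembled pump needs. It was listed at 0 and 0.110 TPM in Ctrl, or 0 and 3 reads, and at 47.2 and 48.0 TPM in AZ20, or 1626 and 1491 reads. The 2 AZ20 libraries were almost equal and the Ctrl libraries were at the limit of detection. Its log2 change of 5.53 (SE 0.24, 95% interval 4.95 to 6.10, limma adjusted p = 4.98e-05) ranked 32 from the highest among the 341 X-linked genes tested. Mean TPM rose 867-fold, with a wide counting interval of 278 to 3941 from pooled reads, since the denominator was 3 reads. Against the second Ctrl library alone the ratio was 433, and against the first, with 0 reads, AZ20 was at least 378-fold higher. The read counts of *Atp6ap2* include a whole factor of 3 that was set from its annotated length, and TPM and the fit do not depend on that factor.

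*Atp6ap1* (chrX:74297097-74304721, plus strand) encodes Ac45, a further accessory subunit of the same pump. No read fell on it in either Ctrl library, whereas AZ20 held 115 and 104 reads, or 3.61 and 3.62 TPM. It was at least 28.4-fold higher in AZ20, computed against 3 reads in each Ctrl library, as are the other lower bounds given here. The log2 change was 2.21 (SE 0.31, 95% interval 1.48 to 2.94, limma adjusted p = 0.0107) and was 2.21 in both pairs, but the call rested on all 4 libraries: leaving out a Ctrl library gave adjusted p = 0.0641 and 0.0646. By level, *Atp6ap2* exceeded *Lamp2* and *Lamp2* exceeded *Atp6ap1* in both AZ20 libraries. In AZ20 as a whole, the order of mean levels was *Lamp1* at 99.3 TPM, *Atp6ap2* at 47.6, *Cd63* at 22.2, *Lamp2* at 7.69, *Atp6ap1* at 3.62 and *Lamp3* at 0.493 TPM. Neighbors in this order did not overlap between libraries, although *Cd63* had an SD of 10.6 TPM.

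The 2 X-linked enzyme genes had at most 1 read in any library. *Gla* (chrX:134588149-134601125, minus strand) encodes alpha-galactosidase A, the glycosidase deficient in Fabry disease, and *Ids* (chrX:70343069-70365084, minus strand) encodes iduronate-2-sulfatase, deficient in Hunter syndrome. *Gla* was listed at 0 in both Ctrl libraries and in 1 AZ20 library, and at 0.0227 TPM, which was 1 read, in the other. *Ids* was listed at 0 in all 4 libraries. At this depth, 3 reads would have given 0.0681 to 0.0981 TPM for *Gla* and 0.0419 to 0.0603 TPM for *Ids*, so higher levels would have been seen if reads could be assigned to these genes. Neither reached 1 TPM and neither was tested, and a value of 0 does not by itself show that a gene was silent, since reads without a unique alignment were discarded by the authors. The subunit c gene of the pump, *Atp6v0c*, which was picked after its values were seen because acidification needs it, was likewise at 0 in 1 library of each group and averaged 0.151 TPM in Ctrl and 0.132 TPM in AZ20.

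In all, 3 of the 5 X-linked members were tested and all 3 were called higher in AZ20, where a call needed a change of at least 2-fold on the log2(TPM + 1) scale and an adjusted p under 0.05. All 3 passed the minimum of 1 TPM for a test through AZ20 only, with Ctrl means of at most 0.0964 TPM. A gene so low in Ctrl could enter the test only by being higher in AZ20, so this count is a description and does not support a direction for the X-linked members. The same held for 288 of the 341 X-linked genes tested, or 84.5%, and for 5.12% of the autosomal ones. Among all X-linked genes tested, 216 of 341, or 63.3%, were called higher, with a median log2 change of 2.61. The tested X-linked members, at 2.21, 2.99 and 5.53, lay on both sides of that median, and *Lamp2* ranked 151 of 341 by change and 163 of 341 by mean level in AZ20. Of the 4 autosomal members, 2 were tested and neither was called or had an unadjusted p under 0.05 in limma. The calls of the X-linked members needed both AZ20 libraries: without either of them no gene of the 10316 tested was called by limma, with 871 and 737 genes at an unadjusted p under 0.05. In these fits the spread was estimated from the Ctrl libraries alone, with the lone AZ20 library taken to vary alike, and the cause of the loss was not tested. The background for autosomal genes was 15 called of 9925, or 0.151%, in either direction, with a median log2 change of 0.06. Summed over members, X-linked genes held 0.0241 and 0.279 TPM in Ctrl and 57.9 and 60.0 TPM in AZ20. Autosomal members held 147 and 149 TPM in Ctrl and 131 and 113 TPM in AZ20. The X-linked share of the summed level of the 9 genes thus went from 0.0164% and 0.186% to 30.7% and 34.6%. In AZ20, *Atp6ap2* made up most of this share.

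**Figure D2:**
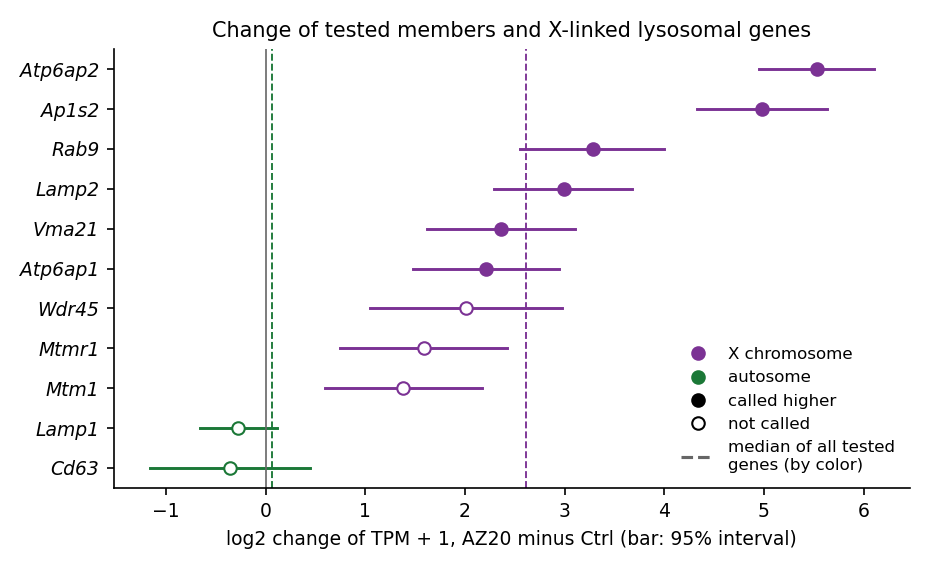
Log2 change of TPM + 1 (AZ20 minus Ctrl, horizontal axis) for the 5 tested members and the other tested X-linked lysosomal genes, with bars for 95% intervals from limma. Filled points were called higher and open points were not called, and dashed lines mark the medians of all tested X-linked genes (2.61) and autosomal genes (0.06). *Atp6ap2* at 5.53 and *Ap1s2* at 4.98 lie right of the X-linked median, and the intervals of *Lamp1* and *Cd63* span 0.

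The region just upstream of the start is given for *Lamp2*, for the other members that rose, for *Gla*, which had 1 read, and for *Lamp1* as the autosomal relative, so that genes with different values can be compared by sequence. All 9 members had a promoter in the RefSeq table (GRCm38.p6). Each line holds the 250 bases before the annotated start, 5′ to 3′ on the gene's strand. The start is that of RefSeq, whereas the gene spans given above follow another annotation, GENCODE. By those spans, the windows of *Gla*, *Cd63*, *Scarb2* and *Lamp3* reach into the gene, and the CCAAT boxes of *Gla* lie inside it. Capitals mark CACGTG, the E-box at the core of the element bound by TFEB and TFE3, which act on many lysosomal genes, and CCAAT or its reverse complement ATTGG, the CCAAT box, a common promoter element. These motifs were chosen after the sequences had been seen. The regions are chrX:38456461-38456710 (minus strand), chrX:74296847-74297096 (plus strand), chrX:12587509-12587758 (plus strand), chrX:134601006-134601255 (minus strand) and chr8:13158911-13159160 (plus strand).
Lamp2: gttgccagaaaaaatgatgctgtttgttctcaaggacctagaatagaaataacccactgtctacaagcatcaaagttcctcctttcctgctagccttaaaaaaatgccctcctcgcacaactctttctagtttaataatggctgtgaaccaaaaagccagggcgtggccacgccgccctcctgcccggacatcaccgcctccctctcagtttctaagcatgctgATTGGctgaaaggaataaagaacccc
Atp6ap1: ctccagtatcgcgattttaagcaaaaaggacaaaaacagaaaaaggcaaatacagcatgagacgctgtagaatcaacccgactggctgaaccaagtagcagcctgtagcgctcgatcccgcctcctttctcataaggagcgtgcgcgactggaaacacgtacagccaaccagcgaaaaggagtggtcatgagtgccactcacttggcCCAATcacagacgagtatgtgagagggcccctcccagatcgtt
Atp6ap2: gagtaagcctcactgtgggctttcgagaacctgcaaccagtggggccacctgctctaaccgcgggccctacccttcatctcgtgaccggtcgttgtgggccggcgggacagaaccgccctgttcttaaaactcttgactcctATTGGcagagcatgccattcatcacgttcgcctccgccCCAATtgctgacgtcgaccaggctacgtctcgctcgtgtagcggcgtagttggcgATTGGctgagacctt
Gla: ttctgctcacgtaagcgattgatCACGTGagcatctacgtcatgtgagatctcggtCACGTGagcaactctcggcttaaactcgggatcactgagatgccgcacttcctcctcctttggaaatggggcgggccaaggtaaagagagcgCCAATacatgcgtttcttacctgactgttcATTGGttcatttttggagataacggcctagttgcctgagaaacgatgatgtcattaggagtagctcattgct
Lamp1: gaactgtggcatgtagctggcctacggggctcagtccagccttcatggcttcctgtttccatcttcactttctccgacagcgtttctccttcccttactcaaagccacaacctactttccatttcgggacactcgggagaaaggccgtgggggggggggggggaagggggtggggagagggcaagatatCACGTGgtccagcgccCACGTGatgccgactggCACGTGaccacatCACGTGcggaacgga

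*Lamp1* carried 4 E-boxes within the last 61 bases before its start, at -61, -45, -28 and -15 counted to the first base of each, and *Gla* carried 2, at -227 and -194. The other 7 members, with *Lamp2*, *Atp6ap1* and *Atp6ap2* among them, had none in this window. At least 1 E-box was present in 6.02% of 32851 promoter windows of the same length, and at least 4 in 0.0213%. The CCAAT box had another distribution over the members. It occurred once in *Lamp2* (-26) and *Atp6ap1* (-43), 3 times in *Atp6ap2* (-108, -70 and -15) and 2 times in *Gla* (-102 and -72), and in none of the 4 autosomal members or *Ids*. Of all windows, 33.8% held a CCAAT box, and of the 1223 X-linked windows 41.2% did. Of the other X-linked lysosomal genes called higher, described below, *Vma21* had 1 E-box in each of its listed windows and no CCAAT box. *Ap1s2* had 1 of each motif and *Rab9* had neither. A motif match is a description of letters, and *Gla*, with 1 read in AZ20, was the only one of the 9 members with both motifs in its window.

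*Gla* had a further feature. The RefSeq start of *Hnrnph2*, which encodes an RNA-binding protein of the spliceosomal hnRNP family, lies on the opposite strand with 173 bases between the starts, so the last 173 bases of the *Gla* region printed above are also, on the other strand, the bases just upstream of *Hnrnph2*. The E-boxes of *Gla*, at -227 and -194, lie outside these shared bases, and the CCAAT boxes lie within them. *Hnrnph2* was at 0.293 and 0.513 TPM in Ctrl and 57.0 and 56.3 TPM in AZ20, a log2 change of 5.37 (SE 0.24, limma adjusted p = 4.98e-05). On the other side, the annotated end of *Gla* lies 0.0870 kb from that of *Rpl36a*, a ribosomal protein gene. *Rpl36a* was at 0.608 and 0 TPM in Ctrl and 18.0 and 11.5 TPM in AZ20, a log2 change of 3.61 (SE 0.36, limma adjusted p = 0.00175). Both neighbors were called higher, and between them *Gla* had 1 read in 4 libraries. Reads from *Rpl36a* can be shared with its copies elsewhere in the genome, and only unique alignments were counted.

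**Figure D3:**
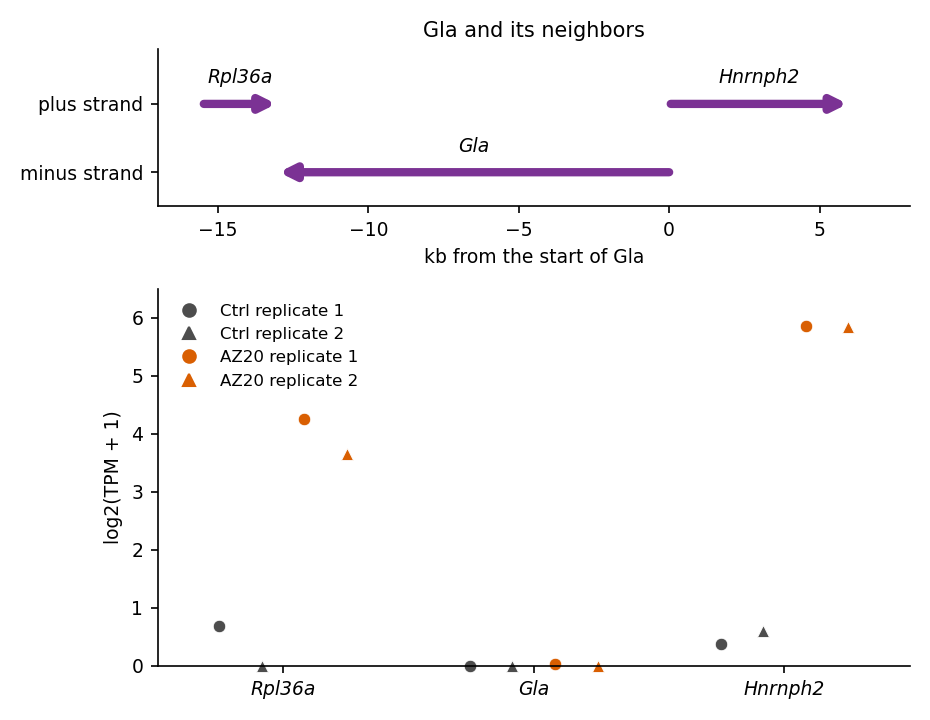
Top, the annotated spans and directions of *Rpl36a*, *Gla* and *Hnrnph2*, in kb from the start of *Gla*, with arrows pointing along transcription. Bottom, the level of each gene in each library as log2(TPM + 1), gray for Ctrl and orange for AZ20, with circles for replicate 1 and triangles for replicate 2. *Rpl36a* and *Hnrnph2* rise in both AZ20 libraries, and *Gla* stays at or near 0 in all 4.

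The nearest tested gene on each side of the other X-linked members was read in the same way. *Lamp2* lies 76.8 kb from *Cul4b*, the gene of a cullin ubiquitin ligase scaffold, at 0.902 and 0.0343 TPM in Ctrl and 26.3 and 27.9 TPM in AZ20, and 271 kb from *Rhox13*, a homeobox gene of the germ line, at 0 in Ctrl and 11.4 and 9.18 TPM in AZ20. Both were called higher, with log2 changes of 4.32 (limma adjusted p = 0.000534) and 3.49 (limma adjusted p = 0.000690). *Atp6ap1* lies between *Taz* (6.95 kb away, log2 change 1.49, limma adjusted p = 0.137) and *Lage3* (46.6 kb, 1.19, limma adjusted p = 0.276), neither of which was called. With the replicate number as a block *Taz* was called (limma adjusted p = 0.0133). *Atp6ap2* lies 1991 kb from *Tspan7*, which was called higher (2.43, limma adjusted p = 0.0359). It lies 35.3 kb from *Gm4984*, which was not called (1.39, limma adjusted p = 0.160) unless the replicate number was a block (limma adjusted p = 0.00382). The tested genes flanking *Ids* were not called: *1110012L19Rik*, 20.8 kb away, was at 0 in Ctrl and 1.63 and 1.51 TPM in AZ20 (log2 change 1.36, limma adjusted p = 0.150, and 0.0351 with the block, which calls it), and *1700020N15Rik*, 397 kb away, had a log2 change of -0.07 (limma adjusted p = 0.988).

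The lists of lysosomal genes were then read for the same division by chromosome. They held 173 genes of 8 kinds, of which 18 are X-linked, members included. Of the 18, 9 were tested and 6 were called higher, the 3 members and *Vma21*, *Ap1s2* and *Rab9*, beside the 63.3% of all X-linked genes. All 9 had Ctrl means of at most 0.405 TPM and passed the minimum through AZ20 only, so their counts and changes were bound to point upwards and are descriptions. The other 3 tested, *Wdr45*, *Mtm1* and *Mtmr1*, were above both Ctrl libraries in both AZ20 libraries without passing the test. Groups did not overlap, in either direction, for 311 of the 341 X-linked genes tested. With the replicate number as a block all 9 were called, and voom on recovered reads called 8. Over all 10316 genes tested, the block called 447 and voom 235, against 240 in the main fit. The share of all X-linked genes called in these alternative fits is not given here.

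*Vma21* encodes an assembly factor of the proton pump. It had no read in Ctrl and was at 4.56 and 3.72 TPM in AZ20, at least 62.1-fold higher, with a log2 change of 2.36 (SE 0.31, limma adjusted p = 0.00798, and 0.0519 without the second Ctrl library). All 3 X-linked pump genes of the lists were called, beside 63.3% of all X-linked genes tested. They entered the test through AZ20 only, so this count is a description. *Ap1s2* encodes a small subunit of the AP-1 coat that carries cargo between the Golgi and endosomes. It was at 0.156 and 0.653 TPM in Ctrl and 41.8 and 43.5 TPM in AZ20. The log2 change was 4.98 (SE 0.27, limma adjusted p = 9.73e-05). The ratio of mean TPM was 105, with a counting interval of 70.3 to 151 from pooled reads. The ratio was 274 against the first Ctrl library alone and 65.2 against the second. Its autosomal paralog *Ap1s1*, picked after its values were seen, was at 21.0 and 29.9 TPM in Ctrl and 31.1 and 22.9 TPM in AZ20, with overlapping groups and a log2 change of 0.09 (limma adjusted p = 0.960). In AZ20 the X-linked gene was thus the higher of this pair, which was not so for *Lamp2* and *Lamp1*.

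*Rab9* encodes a small GTPase that returns mannose 6-phosphate receptors from late endosomes to the Golgi. It rose from 0.548 and 0.0599 TPM to 11.2 and 11.7 TPM, a log2 change of 3.28 (SE 0.31, limma adjusted p = 0.00124). *Wdr45*, an autophagy gene, had no read in Ctrl and was at 4.61 and 1.90 TPM in AZ20 (log2 change 2.01, SE 0.41, limma adjusted p = 0.0696). Its AZ20 libraries differed more from each other than those of the called X-linked genes of the lists. The myotubularin genes *Mtm1* and *Mtmr1*, whose products are phosphoinositide phosphatases of endosomes, had no read in Ctrl. *Mtm1* reached 1.46 and 1.75 TPM in AZ20 (log2 change 1.38, limma adjusted p = 0.147) and *Mtmr1* 1.53 and 2.58 TPM (log2 change 1.59, limma adjusted p = 0.105). In reads, *Mtm1* was at least 22.3-fold higher in AZ20, *Mtmr1* at least 34.2-fold higher and *Wdr45* at least 18.3-fold higher. The block gave adjusted p = 0.000258 for *Wdr45*, 0.0317 for *Mtm1* and 0.00766 for *Mtmr1*.

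The 9 untested X-linked genes of the lists stayed under 1 TPM, and those named here were chosen after their values were seen. *Tfe3*, which encodes a transcription factor of lysosomal genes, had no read in Ctrl and 10 and 6 reads in AZ20, or 0.189 and 0.126 TPM, at least 2.05-fold higher. *Rab9b* had 0 reads in Ctrl and 17 and 35 in AZ20 and *Atg4a* 0 in Ctrl and 4 and 7 in AZ20. *Slc9a7* had 1 read in 1 AZ20 library, as *Gla* did. *Clcn5* and *Ocrl*, along with *Ids*, were listed at 0 in every library. Reads thus appeared in AZ20 for part of the untested X-linked genes, while the remainder had none or 1 in all 4 libraries. Genes at 0 in all libraries were common in the table, at 6563 symbols or 28.0%, and 390 of the 1033 X-linked ones.

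Autosomal genes of the lists were read from the same fit. Of 155 in the table, 98 were tested and none was called in limma, beside 0.151% of all autosomal genes. Voom on recovered reads called none either. In the main limma fit 1 of the 98, *Hyal2*, had an unadjusted p under 0.05, beside 630 of all 9925 autosomal genes tested. *Hyal2*, which encodes a hyaluronidase and was named after its values were seen, was at 0.965 and 0.891 TPM in Ctrl and 2.75 and 2.23 TPM in AZ20 (log2 change 0.85, SE 0.30, limma adjusted p = 0.420). The 98 changes ran from -0.54 to 0.92 with a median of 0.04, and 94 of the 98 genes passed the minimum in Ctrl. By kind, the median log2 change was 0.05 for 18 membrane proteins, 0.08 for 19 pump genes, -0.17 for 13 glycosidases, 0.12 for 4 sulfatases, -0.10 for 7 proteases, -0.04 for 7 lipid, phosphatase and nuclease genes, 0.00 for 13 sorting genes and 0.07 for 17 genes of late endosomes and autophagosomes.

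The levels of a few autosomal pump genes are given beside the X-linked ones. *Atp6v1g1* and *Atp6v1f*, subunits of the soluble sector and the highest autosomal pump genes, were at 1795 to 2167 TPM and 812 to 881 TPM across the 4 libraries. *Atp6v1h*, another subunit of that sector picked after its values were seen, averaged 70.1 TPM in Ctrl and 81.2 TPM in AZ20. Against it, *Atp6ap2* was at 0% and 0.159% in Ctrl and at 59.1% and 58.1% in AZ20. Autosomal pump genes were uneven in level, and 19 of 26 were tested. *Atp6ap1*, *Atp6ap2* and *Vma21* had 3 reads in all in Ctrl.

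Among glycosidases, the highest autosomal genes were *Fuca1*, an alpha-fucosidase, at 32.6 and 43.5 TPM in Ctrl and 47.9 and 31.0 TPM in AZ20, and *Aga*, the aspartylglucosaminidase, at 34.3 and 44.4 TPM in Ctrl and 32.7 and 24.4 TPM in AZ20. *Gla* thus stood at 0 or 1 read beside genes of its class above 24 TPM. Among the sulfatases, *Arsa*, which encodes arylsulfatase A, was at 3.45 to 5.30 TPM, against 0 for *Ids*. Autosomal genes were at 0 in all 4 libraries too, such as *Sumf1* of the sulfatase list and *Hyal1* of the glycosidases, picked after their values were seen. Of the 155 autosomal genes of the lists, 14 were at 0 throughout, beside 3 of the 18 X-linked ones. The highest proteases, *Scpep1* and *Lgmn*, were at 11.4 to 18.8 TPM and 8.77 to 16.0 TPM. Lipid handling was led by *Gm2a*, an activator of ganglioside breakdown, at 70.0 to 111 TPM, and *Npc2*, a cholesterol carrier, at 34.6 to 74.7 TPM. After *Lamp1*, the highest membrane gene was *Laptm4a* at 67.1 to 84.0 TPM, the AP-1 and AP-3 coat genes *Ap1m1* and *Ap3s1* were at 128 to 170 TPM and 96.0 to 131 TPM, and the ATG8 family genes *Gabarap* and *Map1lc3b* at 700 to 798 TPM and 446 to 535 TPM. None of the tested genes named here was called. *Lgmn* had the lowest log2 change of the 98 tested autosomal genes of the lists, which ran from -0.54 to 0.92.

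**Figure D4:**
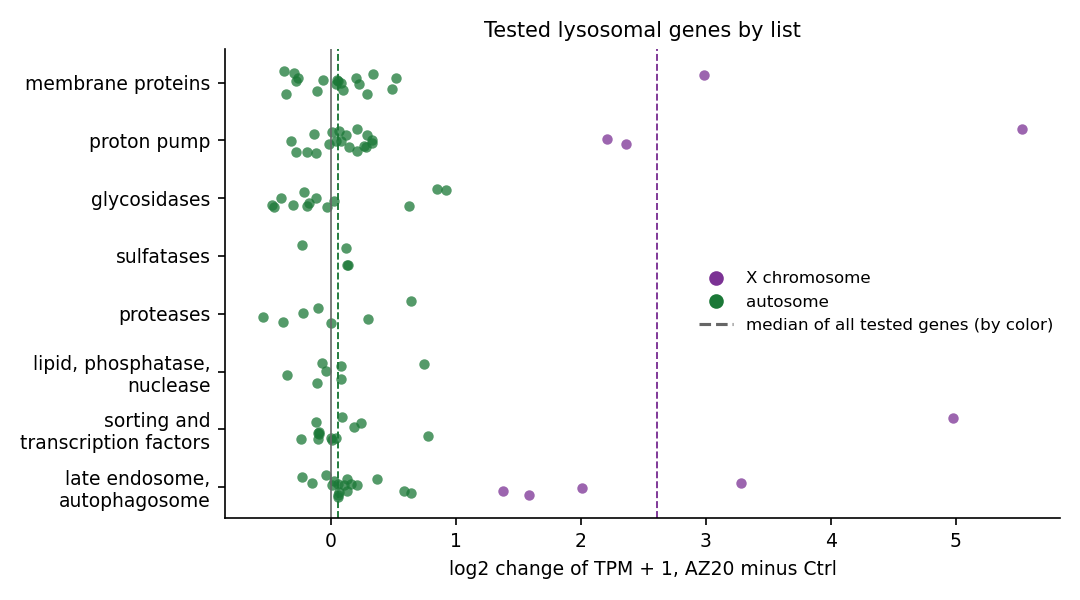
Log2 change of TPM + 1 (AZ20 minus Ctrl, horizontal axis) of every tested lysosomal gene, in 8 rows by kind, with purple points for 9 X-linked genes and green points for 98 autosomal genes. The vertical offset of points within a row has no meaning, and dashed lines mark the medians of all tested genes of the X chromosome (2.61) and autosomes (0.06). Green points reach from -0.54 to 0.92 and purple points from 1.38 to 5.53, but all 9 X-linked genes entered the test through AZ20 only.

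The genes with values most like those of *Lamp2* were found by the Euclidean distance of log2(TPM + 1) over the 4 libraries, among all genes tested. The 5 nearest were *Zfx* (0.256), *Mageb4* (0.263), *Map7d2* (0.324), *4930402K13Rik* (0.342) and *Magea4* (0.386), all of them X-linked and all called higher. *Zfx*, which encodes a zinc finger transcription factor, was at 0.156 and 0.0867 TPM in Ctrl and 6.81 and 9.38 TPM in AZ20. The other 4 were at 0 in both Ctrl libraries and at 5.66 to 9.41 TPM in AZ20. With 4 libraries in 2 groups, the measure mostly reflects the level in each group. The 5 genes were picked for values like those of *Lamp2*, so their calls follow from that choice and are a description. Of all X-linked genes tested, 63.3% were called higher.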

How the data were processed

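RNA from 4 libraries of sorted mouse pachytene spermatocytes, 2 Ctrl and 2 AZ20, was sequenced as 150-bp paired reads after amplification with a low-input kit that does not mark strand. After trimming with Trimmomatic 0.39 and alignment to GRCm38/mm10 with STAR 2.5.4b, the authors kept unique alignments, counted them on UCSC refGene genes with featureCounts 2.0.1 and deposited TPM computed from the counts, whose columns each sum to 1000000. Unique alignment lowers genes that share sequence with copies. The strand setting of the counting is not given in the sources used here. The authors' own test used DESeq2. The sequencer and the culture temperature differ between the labels and the methods, so neither is stated here.

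Of the table, 92 rows without a symbol were left out of the tests, and 23420 symbols remained, of which 139 were not placed as autosomal, X-linked or Y-linked genes by GENCODE or RefSeq names. The 10316 genes whose mean TPM passed 1 in either group were fitted with limma 3.58.1 in R 4.3.3 on log2(TPM + 1), with a trend in the variance. Calls required a 2-fold or larger change on that scale and a Benjamini-Hochberg adjusted p under 0.05 over all 10316 genes. The main fit and the recovery of reads up to a whole factor were run on simulated data. The choice of that factor, the replicate block and voom were not. Whole reads were recovered from the TPM, from the gene length common to all libraries, for 16854 of 16857 genes above 0, to within a relative error of 3e-09. For 2317 genes (14.9% of the 15526 with an annotated length) they were multiplied by a whole factor taken from that length, so read numbers, depth and counting intervals carry that uncertainty, and intervals cover counting error only, at 95%. A floor of 3 reads was used for genes at 0. Read numbers do not enter the TPM fit.

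The methods divide the cells of each mouse between the treatments. Equal replicate numbers were taken to mark a mouse, which neither the labels nor the methods state. Deviations of same-numbered libraries from their group means correlated at 0.231 over autosomal and 0.183 over X-linked genes, which does not settle it. The fit with this block was an alternative, because the study's test names no such term. The members and the gene lists were chosen with earlier results of these data known. Genes named are the 9 members, the tested X-linked genes of the lists, the called autosomal ones, the 2 highest tested autosomal genes of each list, the 5 nearest to *Lamp2* and the nearest tested gene on each side of each X-linked member, and other names, among them *Hyal2* and the untested X-linked genes of the lists, were chosen after their values were seen. Of the genes this rule gives, 1 is not reported here.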

Additional observations from a re-analysis of the deposited data

How the results depend on the processing

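With the pseudocount at 0.1 or 0.01, no filter, autosomal scaling, quantile normalization, no variance trend, the replicate block, voom on recovered reads, or voom with the block (this last chosen after seeing the data), all 3 tested X-linked members stayed called and *Lamp1* and *Cd63* uncalled. With a mean TPM above 5, *Atp6ap1* was no longer tested. No autosomal gene of the lists was called under any alternative. Leaving out 1 library, 0 to 2 of the X-linked members and 0 to 5 of the X-linked genes of the lists were called. Both counts were 0 without either AZ20 library, where 0 of 10316 genes passed the test. *Lamp2* then had adjusted p = 0.0946 and 0.0756 at log2 changes of 3.10 and 2.88. The change of *Cd63* ran from -0.84 to 0.13, the latter without AZ20 replicate 2. With the replicate block, 447 genes were called in place of 240, and of the X-linked genes of the lists *Wdr45*, *Mtm1* and *Mtmr1* were added to the calls, with no call lost among them or the members. *Rab9* lost its call at a pseudocount of 0.01 (adjusted p = 0.0792). Quantile normalization moved the median log2 change of all tested genes from 0.07 to -0.07. With 2 libraries per group, changes of genes near 1 TPM were imprecise, and genes under 3 reads in a library were not measurable at this depth.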
